A study of Homo sapiens with 32 samples.

Results

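MDA-MB-468, an established line of human triple-negative breast cancer cells, was treated for 24 h with 0.5 μM salinomycin (Sal) together with 15 μM dasatinib (Das), and the combination (S + D) was compared with cultures that received PBS for 24 h (control). The 4 S + D and 4 control libraries of total RNA were taken by their labels and are 8 of the 32 libraries of the series, which holds control, Sal, Das and S + D at 24 and at 72 h with 4 biological replicates each. All groups are 1 cell line grown in medium with serum, so they show the response of these cells alone. Per the study's methods the drug stocks were made in DMSO, and the labels name PBS for the control. In each group 1 library carried no replicate number in its label and the other 3 were numbered 1 to 3.

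Salinomycin is a polyether antibiotic that carries potassium ions across membranes and is known for its toxicity to cancer stem-like cells. Dasatinib blocks the kinases of the SRC family and ABL, together with several receptor kinases, and so acts on the signals that run from growth factor receptors and from integrins to the RAS and ERK pathway and to YAP. MDA-MB-468 cells carry very high EGFR, and in such cells ERK activity drives the immediate early genes, the feedback inhibitors of ERK and the cyclin D1 that opens the cell cycle.

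The libraries held 32788584 to 42769687 counts in the control and 29616013 to 33390639 in S + D, of 48804 genes listed. Levels are given in CPM (the counts of a gene as a share of all counts of the library, after TMM scaling), always in the order unnumbered library, library 1, library 2 and library 3, and changes as the log2 fold change of S + D over control ± SE. Over the 8 libraries, the first principal component took 66.5% of the variance and separated S + D from control, and the second took 19.9% and set the unnumbered libraries (−37.0 and −55.6) apart from the numbered ones (8.54 to 21.1). The deviations of the unnumbered libraries from their groups correlated at 0.61 to 0.69 over the 6 pairs of the 4 treatments at 24 h. The unnumbered libraries were therefore fitted as a batch, which every group holds once, and values from the numbered libraries alone are given beside EGR1, CCN3, CA9, CXCL8 and the glycolysis list. Of the markers of the cell type, EGFR stood at 4681, 4794, 4874 and 4917 CPM in the control and at 3693, 4826, 4909 and 4629 CPM in S + D. KRT5, KRT7, KRT8, KRT18, KRT19, EPCAM and CDH1 were high. The other basal markers had lower control means, of 39.9 CPM for KRT17, 13.6 for KRT14, 9.71 for KRT6B and 1.51 for KRT6A. Among hormone receptor or ERBB2 markers, PGR had at most 1 count in any of the 8 libraries. Mean CPM in control and S + D were 115 and 146 for ERBB2, 5.43 and 7.32 for ESR1, 1.17 and 1.85 for GREB1 and 0.00587 and 0.413 for TFF1. Summed over their lists, markers of leukocytes ran from 12.1 to 16 CPM in the control and from 2.60 to 3.12 CPM in S + D, most of it CD14, with PTPRC, CD3E and LYZ at 3 counts or fewer. Fibroblast markers came to 19.1 to 37.0 and 42.0 to 69.7 CPM, most of it COL1A1, with COL1A2, COL3A1, DCN and LUM at 2 counts or fewer, and endothelial markers to 1.97 to 4.39 and 0.806 to 1.20 CPM, with CLDN5 at 0.

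Over 16357 genes tested, 551 were higher in S + D (3.37%) and 508 lower (3.11%) past both cutoffs of the study (adjusted p below 0.01, with a log2 fold change beyond 1.5 either way). At the adjusted p alone, which is the test for single genes and for members of gene lists below, 4414 genes rose (27.0%) and 4195 fell (25.6%), and the median change of all genes tested was 0.03. Of the 1059 genes past both cutoffs, 1014 had no overlap between the 4 S + D and the 4 control libraries. Among all genes tested, 3963 (24.2%) lay higher and 3671 (22.4%) lower without overlap. Protein-coding genes made up 348 of the genes called higher and 422 of those called lower, of 13143 tested, and long non-coding RNAs 137 and 59, of 1940. The balance of the calls depended on the level of the genes. Where the control or S + D libraries averaged 5 CPM or more, fewer genes were called higher (189) than lower (259), of 11515 tested. Among all calls, 39 of the higher genes never exceeded 3 counts in the control, and 22 of the lower genes never did in S + D.

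**Figure D1:**
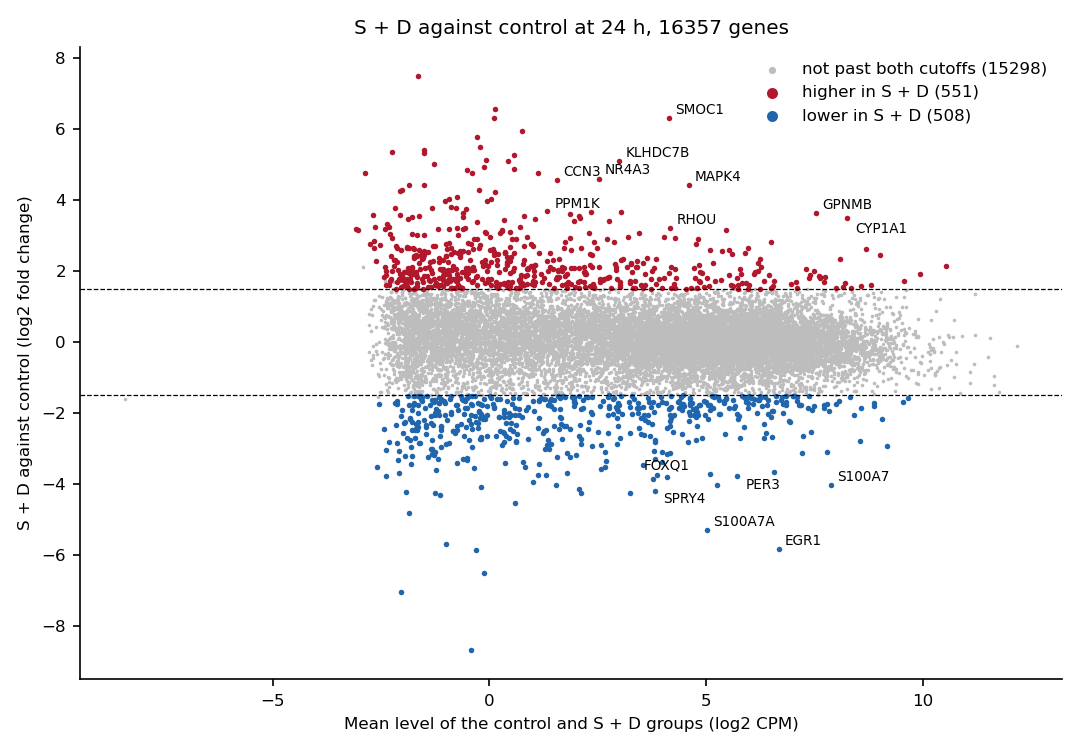
Change of each of the 16357 genes tested (vertical axis, log2 fold change of S + D over control at 24 h) against the mean level of both groups (horizontal axis, log2 CPM). The 551 genes called higher and the 508 called lower lie outside the dashed lines at 1.5 and −1.5, and EGR1 and S100A7A are the lowest of the genes labelled in the plot.

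Among protein-coding genes of at least 5 CPM in a group, the largest rise was in SMOC1, which encodes a secreted calcium-binding matrix protein (chromosome 14, 70320848 to 70499083, GRCh37). SMOC1 was nearly silent in the control, at 0.517, 0.636, 0.248 and 0.315 CPM, and reached 23.7, 39.5, 37.7 and 39.5 CPM in S + D. Its level was 81.8 times that of the control, a change of 6.31 ± 0.23 (adjusted p = 3.36e-14). The lowest S + D library, the unnumbered one, lay far above the highest control library. MAPK4, an atypical MAP kinase, rose from 1.57, 1.91, 2.17 and 2.68 to 22.7, 56.3, 52.4 and 53.8 CPM (4.42 ± 0.13, adjusted p = 2.46e-15), again least in the unnumbered library. GPNMB, a glycoprotein of lysosomes and melanosomes, rose from 29.8, 26, 27.2 and 26.3 to 242, 387, 363 and 375 CPM (3.64 ± 0.12, adjusted p = 6.71e-15). NR4A3, an orphan nuclear receptor, went from 0.470, 0.484, 0.468 and 0.410 to 12.5, 11.2, 10.5 and 9.77 CPM (4.60 ± 0.34), so that its S + D libraries were close to each other. The other genes among the 12 largest rises were KLHDC7B (5.09 ± 0.24), CCN3 (4.55 ± 0.34, or 5.18 over the numbered libraries), BAIAP3 (3.65 ± 0.35), the mitochondrial phosphatase gene PPM1K (3.65 ± 0.33), CYP1A1 (3.49 ± 0.15), DQX1 (3.42 ± 0.24), MYO7A (3.42 ± 0.24) and the small GTPase gene RHOU (3.21 ± 0.13). KLHDC7B and BAIAP3 were highest in the unnumbered S + D library, at 27.1 against 10.3 to 12.7 CPM and at 18.6 against 5.94 to 6.79 CPM.

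Among the same genes of at least 5 CPM the largest fall was in EGR1, a zinc finger transcription factor that growth factors switch on through ERK (chromosome 5, 137801168 to 137804992, GRCh37). EGR1 stood at 259, 163, 192 and 191 CPM in the control and at 10.9, 1.49, 2.47 and 1.99 CPM in S + D, 47.9 times lower, and the highest S + D library, the unnumbered one, lay below every control library (−5.83 ± 0.30, adjusted p = 5.45e-12, or −6.54 over the numbered libraries). S100A7A and S100A7, which encode small calcium-binding proteins of squamous epithelia, fell by 5.31 ± 0.29 and 4.03 ± 0.24 on the log2 scale. Their sequences are close to each other, so reads may have been shared between them. S100A7 went from 554, 423, 383 and 398 to 66.8, 21.3, 18.3 and 19.4 CPM, with the unnumbered library highest in both groups. Involucrin (IVL), a protein of the cornified envelope, fell by 4.15 ± 0.21. The matrix glycoprotein gene TNC fell from 22.4, 14.8, 19.2 and 16.1 to 1.17, 0.775, 1.05 and 0.766 CPM (−4.27 ± 0.20). Members of the lists of immediate early and ERK feedback genes were 5 of the 12, namely EGR1, ETV1 (−4.27 ± 0.24), SPRY4 (−4.19 ± 0.15), FOSL1 (−4.03 ± 0.30) and ETV4 (−3.86 ± 0.20). The others were the clock gene PER3 (−3.79 ± 0.17, with 16.6% of its exon bases inside other annotated genes), OLFM4 (−3.75 ± 0.18) and the transcription factor FOXQ1 (−3.72 ± 0.13).

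**Figure D2:**
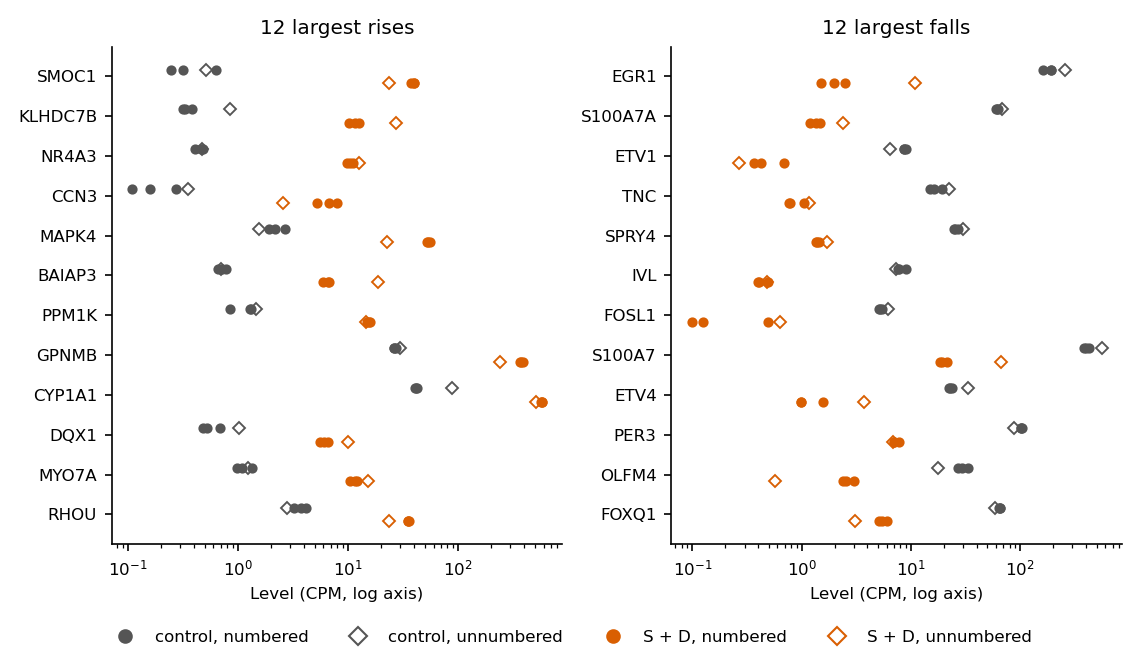
Levels by library (CPM, log axis) of the protein-coding genes of at least 5 CPM in a group that rose most (12 genes) or fell most (12 genes), in 4 control (grey) and 4 S + D (orange) libraries, with the unnumbered libraries as open diamonds. No gene overlaps between the groups, which the choice of these genes required, and EGR1, S100A7 and ETV4 are highest in the unnumbered S + D library while SMOC1, MAPK4 and OLFM4 are lowest there.

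The question of the comparison is how the transcriptome of the cells stood after a day of both drugs. The gene lists below cover pathways that the drugs are known to touch and other groups of genes. They were chosen with earlier results of these data known. For each list the number of members that rose or fell at the adjusted p is given, to be read beside the 27.0% that rose and 25.6% that fell among all genes tested, and its median change beside 0.03. Counts for Sal alone and Das alone against control are set beside them. Those comparisons share the control libraries with S + D, so the counts are set side by side only, and among all genes tested Sal raised 11.3% and lowered 10.8% and Das raised 15.2% and lowered 15.8% (past both cutoffs, 0.941% and 0.0672% with Sal and 1.82% and 1.25% with Das).

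Of 23 immediate early genes tested, 15 fell and 4 rose, with a median of −0.72. Those that rose were ATF3 (1.94 ± 0.16), NR4A2 (1.45 ± 0.08), FOSB (1.07) and KLF4 (0.79 ± 0.08), while KLF2, KLF6, KLF10 and NR4A1 did not pass the test. NR4A2, an orphan nuclear receptor, stood at 18.7, 19.7, 20.9 and 22.2 CPM in the control and at 64.6, 53, 51.3 and 54.8 CPM in S + D. ATF3, which also belongs to the stress response, rose from 13.9, 9.87, 10.4 and 9.58 to 105, 29.0, 31.0 and 31.6 CPM, far more in the unnumbered library than in the others. The falls ran from −0.27 in SRF to −5.83 in EGR1, apart from EGR3, whose fold is only a bound, and FOS fell by 2.07 and JUNB by 1.42. IER3, an early response gene of growth factors, fell from 983, 594, 666 and 670.0 to 266, 171, 195 and 195 CPM (−1.81 ± 0.08), although 38.9% of its exon bases lie inside other annotated genes. With Sal alone 8 of these 23 genes were lower and 2 higher, and with Das alone 11 and 4.

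The promoter of EGR1 is printed from RefSeq (GRCh38.p14, chr5:138465229-138465528, plus strand, from 250 bases before to 50 bases after the start) because this gene had the largest fall among protein-coding genes of at least 5 CPM and carries the CArG box, the binding element of serum response factor through which ERK switches it on. The capitals mark its 2 CArG boxes, searched on both strands. EGR1: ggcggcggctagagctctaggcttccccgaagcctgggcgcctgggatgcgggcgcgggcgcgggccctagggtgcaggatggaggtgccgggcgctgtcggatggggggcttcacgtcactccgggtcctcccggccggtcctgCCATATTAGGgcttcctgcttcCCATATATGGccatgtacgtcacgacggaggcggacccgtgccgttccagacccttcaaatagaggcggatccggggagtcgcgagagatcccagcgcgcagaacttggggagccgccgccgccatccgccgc

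The CArG box was found in 2 of 15 promoters of immediate early genes on hand (13.3%), in 1.02% of the promoters of genes tested and in 1.29% of all 27305 promoters. Among genes called lower its share was 1.20% and among those called higher 1.57%. Here and below, all tested members of a list were counted, whichever way they moved. Several lists were written as targets of the factor that binds the element, so these shares describe the lists and not the response to the drugs.

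ERK feedback genes, which ERK induces and which in part restrain it, fell in 18 of 22 cases and rose in 0, with a median of −1.61. No list had a lower median, and 11 of the 22 were past both cutoffs. SPRY4, a Sprouty inhibitor of RAS signalling, stood at 30.0, 24.7, 25.4 and 27.1 CPM in the control and at 1.71, 1.43, 1.38 and 1.35 CPM in S + D (adjusted p = 3.83e-14). DUSP6, the phosphatase that inactivates ERK, fell from 11.5, 12.8, 11.6 and 11.1 to 0.389, 1.30, 1.12 and 1.44 CPM (−3.53 ± 0.20, with 28.6% of its exon bases inside other genes). Both were at a small part of the control level in every S + D library. ETV4, an ETS factor, went from 33.3, 22.3, 22.9 and 23.8 to 3.71, 0.993, 1.58 and 0.980 CPM. CCND1, cyclin D1, fell from 264, 254, 253 and 264 to 31.7, 44.9, 47.5 and 44.6 CPM, 6.13 times lower (−2.64 ± 0.10, adjusted p = 5.31e-14). The 4 members that did not pass the test were DUSP4 (0.09), SPRED3 (1.05), EPHA4 (−0.04) and HMGA2 (−0.40). With Sal alone 11 members were lower and with Das alone 17.

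Of the EGFR family, EGFR itself did not pass the test (−0.11 ± 0.11, adjusted p = 0.358), and its groups overlapped. Of 12 members of the family and its ligands tested, 7 rose and 3 fell, with a median of 0.28. The ligand genes HBEGF (1.13 ± 0.16), EREG (1.03, adjusted p = 0.00962, or 0.0152 with the replicate number as a block) and EPGN (1.80) were among those that rose. HBEGF went from 3.48, 2.66, 3.30 and 3.15 to 7.21, 6.27, 6.55 and 7.47 CPM. ERBB2 rose by 0.34 ± 0.06, from 110 to 118 CPM over the control libraries to 142 to 148 CPM. The falls were in the ligand NRG2 (−2.39 ± 0.35) and in the inhibitors ERRFI1 (−0.44) and LRIG1 (−0.39 ± 0.09). NRG2 was at a low level, with means of 1.15 CPM in the control and 0.219 CPM in S + D.

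Among the kinases that dasatinib binds, 4 of 19 rose and 6 fell, near the shares of all genes. FYN, a kinase of the SRC family, rose from 8.43, 6.93, 7.27 and 6.59 to 33.4, 25.2, 26.9 and 26.5 CPM (1.93 ± 0.08, adjusted p = 3.45e-13). SRC fell from 51.8, 48.6, 47.7 and 51.8 to 27.9, 27.1, 28.7 and 27.4 CPM (−0.85 ± 0.09, adjusted p = 1.05e-07), so the family moved both ways, each without overlap of libraries. YES1 did not pass the test (−0.10 ± 0.06). The receptor kinase gene DDR2 rose by 2.16, PTK6 by 0.81 and SIK1 by 1.41 ± 0.10, although 91.0% of the exon bases of SIK1 lie inside other annotated genes. EPHA2, an ephrin receptor, fell by 2.07 ± 0.13 and the collagen receptor DDR1 by 0.93 ± 0.07.

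Targets of YAP and TEAD, the factors that answer to cell spreading and tension, fell in 14 of 18 cases and rose in 0, with a median of −0.96. CCN2, connective tissue growth factor, went from 62.7, 15.9, 20.0 and 17.9 to 2.34, 1.58, 2.86 and 3.00 CPM (−3.38 ± 0.24, adjusted p = 4.08e-10). The unnumbered control library lay far above the other 3, and the groups did not overlap. AMOTL2 fell from 268, 197, 202 and 209 to 112, 83.9, 86.6 and 79.7 CPM (−1.28 ± 0.09) and CCN1 from 183, 94.6, 103 and 104 to 55.4, 61.8, 56.2 and 59.8 CPM (−0.99 ± 0.13). The members that did not pass the test were AJUBA, LATS2, PTPN14 and ARHGEF17. Sal alone lowered 3 of the 18 and Das alone 11.

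CCN2 is shown because its promoter holds the TEAD site CATTCC more than once, in capitals here as its complement GGAATG (RefSeq, GRCh38.p14, chr6:131951323-131951622, minus strand). CCN2: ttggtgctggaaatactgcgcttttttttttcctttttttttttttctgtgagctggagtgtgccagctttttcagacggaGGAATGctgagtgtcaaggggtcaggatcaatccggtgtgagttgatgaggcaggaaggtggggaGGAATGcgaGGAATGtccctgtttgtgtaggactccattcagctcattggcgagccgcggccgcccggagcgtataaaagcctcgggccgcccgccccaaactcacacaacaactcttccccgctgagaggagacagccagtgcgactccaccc

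CATTCC, on either strand, was in 7 of 15 promoters of the list (46.7%), in 11% of the promoters of genes tested and in 14.0% of all promoters. It was in 16.5% of the promoters of genes called lower and in 11.9% of those called higher.

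Integrins, laminins and other genes of the matrix fell in 23 of 35 cases and rose in 3, with a median of −0.62. ITGB4, the integrin subunit of hemidesmosomes, fell from 242, 197, 219 and 241 to 66.5, 63.7, 68.0 and 63.5 CPM (−1.78 ± 0.12, adjusted p = 1.04e-10). The rises were in ITGA2 (0.56 ± 0.12), LAMB2 (0.48 ± 0.09) and COL12A1 (0.94 ± 0.19). The largest falls of the list were in TNC, in ITGA9 (−3.25) and in MMP7 (−3.20 ± 0.17), a matrix protease that is also a Wnt target.

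Keratins fell in 11 of 15 cases, 7 of them past both cutoffs, with a median of −1.43. The basal keratin KRT5 went from 817, 851, 918 and 893 to 136, 215, 222 and 212 CPM (−2.18 ± 0.09, adjusted p = 1.52e-13), and its partner KRT14 from 14.0, 13.6, 13.7 and 13.2 to 1.29, 2.08, 2.47 and 1.78 CPM (−2.88 ± 0.17). KRT23 fell by 2.72 ± 0.12, and the luminal keratins KRT8 (−1.57), KRT18 (−1.04) and KRT19 (−1.43) fell as well. KRT81 rose from 165, 114, 127 and 127 to 298, 407, 406 and 393 CPM (1.52 ± 0.14) and KRT86 by 0.65 ± 0.12. Both are keratins of hair with near-identical sequences, so reads may have been shared between them. KRT17 and KRT7 did not pass the test. Cadherins and factors of the epithelial to mesenchymal transition showed no such pattern, with 3 of 17 higher, 5 lower and a median of 0.05. CDH1, E-cadherin, stood at 211, 243, 249 and 253 CPM in the control and at 239, 248, 264 and 262 CPM in S + D (0.09 ± 0.05, adjusted p = 0.178). Vimentin (VIM) rose from 15.0, 7.69, 8.40 and 6.59 to 42.7, 23.5, 23.7 and 25.7 CPM (1.63 ± 0.09), with 24.6% of its exon bases inside other genes. Factors of the mammary lineage fell in 10 of 16 cases and rose in 2 (TFAP2A, 0.19 ± 0.05, adjusted p = 0.0120 with the replicate number as a block, and CEBPD, 0.46 ± 0.12), with a median of −0.44, and ID1 fell by 2.38 ± 0.13. Markers used for breast cancer stem cells fell in 6 of 8 cases and KLF4 alone rose (median −0.81), with CD44 at −0.87 ± 0.11 and ALDH1A3 at −1.68 ± 0.14.

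**Figure D3:**
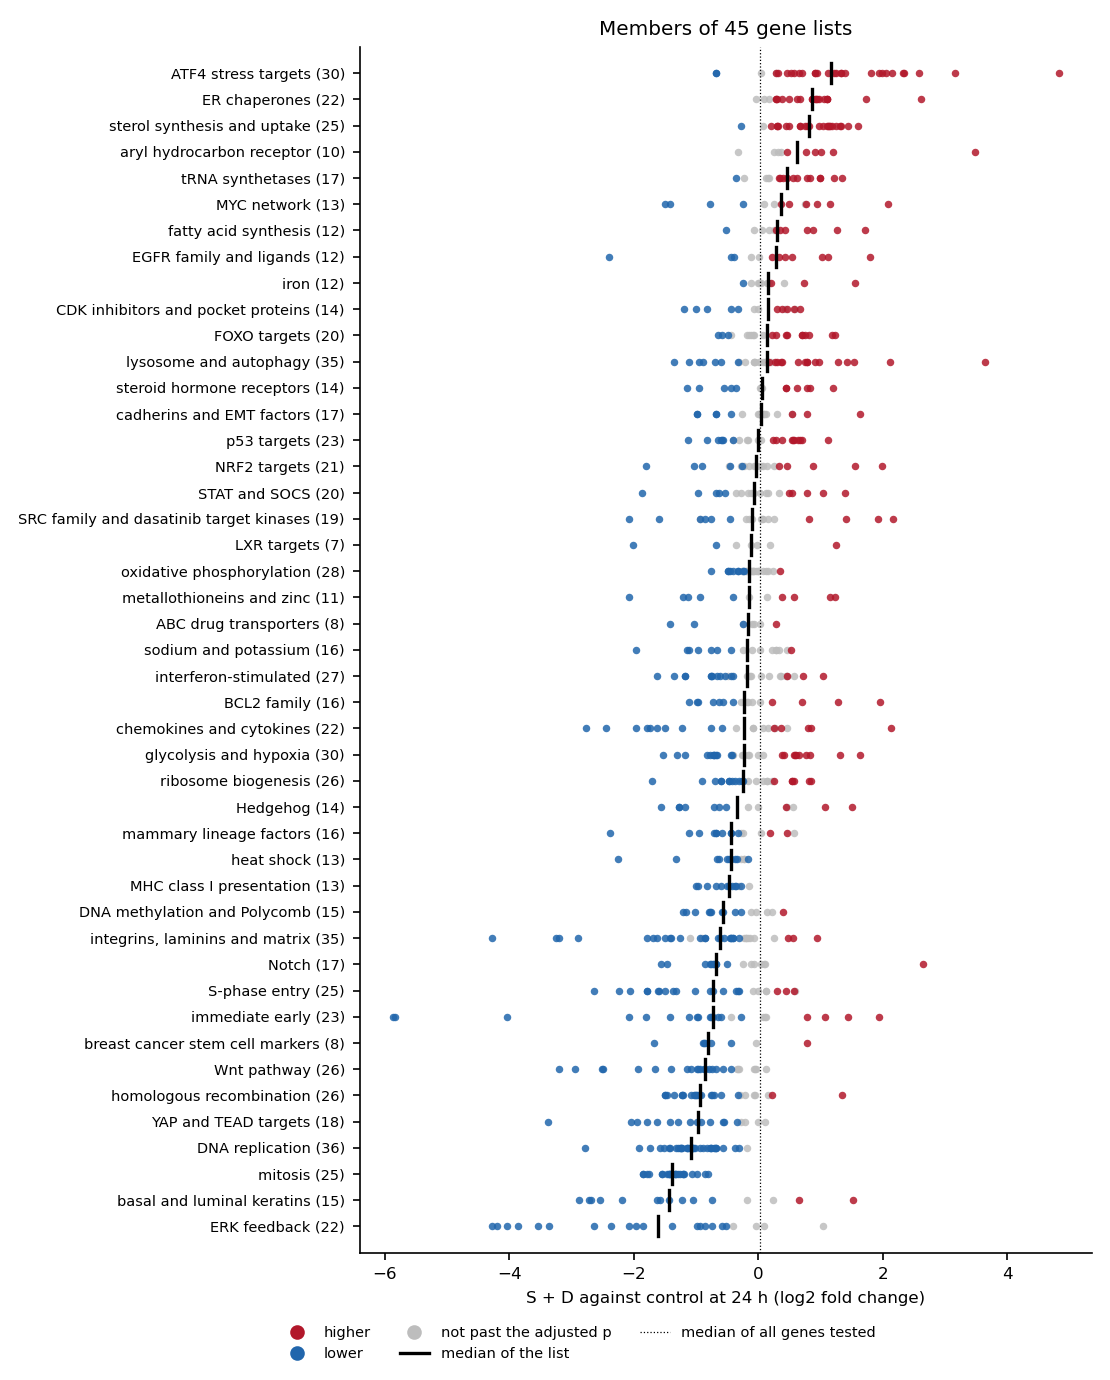
Change of each tested member (log2 fold change, S + D over control at 24 h) of 45 gene lists, ordered by their median (black bar), with the number tested in brackets. Members that rose are red, those that fell blue and those that did not pass the adjusted p grey, and the dotted line at 0.03 is the median of all genes tested. The ERK feedback genes (median −1.61) are lowest and the ATF4 stress targets (median 1.17) highest.

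The genes of the cell cycle were lower in all 3 of their main lists. Of 25 genes of S-phase entry, 17 fell and 3 rose (CDKN1A, 0.58 ± 0.11, CDKN1B, 0.31 ± 0.06, and ESR1, 0.45 ± 0.11), with a median of −0.72. CCNE1, cyclin E1, went from 39.1, 36.9, 35.9 and 37.0 to 12.5, 11.6, 12.4 and 12.9 CPM (−1.59 ± 0.07, adjusted p = 2.69e-13), and MYC from 148, 128, 125 and 132 to 65.4, 85.4, 82.0 and 85.2 CPM (−0.77 ± 0.10). Both fell without overlap. CDKN1B, the CDK inhibitor p27, was higher in each S + D library, at 63.3, 60.3, 59.7 and 60.3 against 46.2, 49.1, 49.8 and 51.1 CPM. Of CDK inhibitors and pocket proteins as a list, 5 of 14 rose and 5 fell (median 0.16), with CDKN2C at −1.19 ± 0.09 and BTG1 at 0.67 ± 0.08. In RNA of whole cultures, a lower level in each cell and a smaller share of dividing cells cannot be told apart.

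DNA replication genes fell in 35 of 36 cases and rose in 0, with a median of −1.08, and only PRIM1 did not pass the test. RRM2, a subunit of the ribonucleotide reductase that makes deoxynucleotides, stood at 551, 724, 689 and 682 CPM in the control and at 87.2, 92.5, 101 and 101 CPM in S + D, 6.93 times lower (−2.79 ± 0.08, adjusted p = 2.49e-15). The helicase subunit MCM5 fell from 163, 175, 182 and 183 to 64.0, 61.2, 68.7 and 67.4 CPM (−1.43 ± 0.07), and MCM2 by 1.25 ± 0.07 with 23.6% of its exon bases inside other genes. Neither gene had an S + D library near the control range. TYMS, thymidylate synthase, went from 365, 337, 341 and 321 to 125, 92.7, 99.0 and 95 CPM (−1.74 ± 0.09), with 47.9% of its exon bases inside other genes. Sal alone lowered 17 and Das alone 30 of the 36.

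TYMS is shown as a replication gene with an E2F site in its promoter (RefSeq, GRCh38.p14, chr18:657403-657702, plus strand), whose letters TTTCCCGC stand in capitals as their complement GCGGGAAA. TYMS: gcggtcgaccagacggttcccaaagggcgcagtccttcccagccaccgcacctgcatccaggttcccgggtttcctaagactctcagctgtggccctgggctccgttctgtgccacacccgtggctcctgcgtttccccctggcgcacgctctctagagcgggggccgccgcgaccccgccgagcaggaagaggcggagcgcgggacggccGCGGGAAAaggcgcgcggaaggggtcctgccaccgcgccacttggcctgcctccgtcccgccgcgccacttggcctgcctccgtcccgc

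TTTCCCGC was found in 9 of 31 promoters of replication genes (29.0%) and TTTGGCGC in 6 (19.4%), beside 2.52% and 1.00% of the promoters of genes tested and 1.66% and 0.659% of all promoters. Both forms were searched on both strands.

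Mitosis genes fell in all 25 of 25 cases, from −0.80 in TTK to −1.85 in PLK1 and KIF20A, with a median of −1.39, and all 25 had no overlap between the groups. PLK1, a kinase of mitotic entry, went from 194, 277, 273 and 279 to 74.4, 66.8, 70.8 and 66.5 CPM (−1.85 ± 0.14, adjusted p = 7.11e-10), and CCNB1, cyclin B1, from 226, 205, 192 and 193 to 103, 64.2, 58.7 and 60.8 CPM (−1.54 ± 0.13). KIF11, a spindle motor, fell by 1.19 ± 0.09. Sal alone lowered 22 and Das alone 25 of the 25. Homologous recombination genes fell in 19 of 26 cases and rose in 2, with a median of −0.93. BRCA1 fell by 1.02 ± 0.08, BRCA2 by 0.98 ± 0.14 and FANCI by 1.5 ± 0.08. The rises were in PALB2 (0.23 ± 0.07) and in ATM. The adjusted p of PALB2, whose groups overlapped, was 0.00855, and 0.0171 with the replicate number as a block. ATM, the kinase that signals DNA breaks, went from 47.5, 60.2, 59.7 and 55.2 to 116, 149, 161 and 141 CPM (1.35 ± 0.11).

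PLK1 is shown for the CHR, the element TTTGAA through which the DREAM complex represses mitotic genes in resting cells, in capitals in its promoter (RefSeq, GRCh38.p14, chr16:23678639-23678938, plus strand). PLK1: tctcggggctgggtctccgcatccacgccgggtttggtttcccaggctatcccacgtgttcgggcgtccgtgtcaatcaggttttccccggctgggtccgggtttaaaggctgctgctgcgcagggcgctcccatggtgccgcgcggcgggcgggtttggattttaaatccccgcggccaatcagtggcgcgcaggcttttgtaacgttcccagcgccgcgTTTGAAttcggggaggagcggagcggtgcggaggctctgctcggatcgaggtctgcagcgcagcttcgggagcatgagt

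TTTGAA was in 13 of 20 mitosis promoters (65.0%), in 9.77% of the promoters of genes tested and in 15.4% of all, and CCAAT in 15 of 20 (75.0%), beside 36.3% and 35.7%. Among genes called lower TTTGAA was in 19.8% of promoters, and among those called higher in 11.3%.

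Sterol genes rose in 23 of 25 cases, with a median of 0.82, and fell in 1, while PMVK did not pass the test. MVD, an enzyme of the mevalonate pathway, rose from 329.6, 177, 198 and 200.4 to 740.4, 625, 655 and 648 CPM (1.61 ± 0.12, adjusted p = 6.01e-10). HMGCS1, which opens the pathway, rose from 339, 191, 183 and 181 to 383, 576, 558 and 571 CPM (1.25 ± 0.16), with 37.7% of its exon bases inside other genes. In the unnumbered libraries HMGCS1 was high in the control already, at 339 CPM, and the step to 383 CPM was small, while the 3 numbered S + D libraries all lay far above the 3 numbered control libraries. HSD17B7 rose by 0.98 ± 0.08. With Sal alone 22 and with Das alone 23 of the 25 were higher. Of 12 genes of fatty acid synthesis, 7 rose and 1 fell (SREBF1, −0.52 ± 0.10), with a median of 0.31. SCD, the desaturase, rose from 378, 455, 482 and 470.1 to 803, 1153, 1180.2 and 1188 CPM (1.26 ± 0.06), and LPIN1 by 1.72 ± 0.12, but FASN did not pass the test (−0.06 ± 0.11, adjusted p = 0.663). Targets of the sterol sensor LXR moved both ways, with APOE at 1.25 ± 0.20, ABCA1 at −2.01 ± 0.32 and MYLIP at −0.67 ± 0.11 the 3 of 7 that passed the test.

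ATF4 stress targets, the genes of the response to amino acid shortage and to stress in the endoplasmic reticulum, rose in 26 of 30 cases and fell in 2 (ATF5, −0.67 ± 0.08, and CEBPB, −0.68 ± 0.13). Their median of 1.17 was the highest of the lists, and 10 were past both cutoffs. CTH, which makes cysteine, rose from 8.34, 10.2, 11 and 9.71 to 47.6, 62.3, 61.1 and 63.7 CPM (2.58 ± 0.08, adjusted p = 5.06e-15). SLC7A5, the transporter of large neutral amino acids, rose from 639, 513, 523 and 525 to 2765, 2299, 2393 and 2290.1 CPM (2.15 ± 0.07, adjusted p = 6.71e-15). Both rose by a like factor in the unnumbered and in the numbered libraries. CHAC1, which breaks down glutathione, went from 17.1, 13.6, 13.4 and 12.9 to 74.0, 42.1, 45.3 and 43.6 CPM (1.81 ± 0.10), and ASNS, asparagine synthetase, rose by 1.25 ± 0.07 with 49.3% of its exon bases inside other genes. DDIT3, the factor CHOP, named here after its values were seen, rose from 13.7, 7.02, 8.45 and 6.74 to 124, 67.5, 64.7 and 62.6 CPM (3.16 ± 0.14, adjusted p = 8.53e-13). SLC7A11, the cystine transporter, rose by 1.99 ± 0.11. Sal alone raised 21 and Das alone 25 of the 30. Of 17 cytosolic tRNA synthetases 12 rose and 1 fell (VARS1, −0.35 ± 0.09), with a median of 0.46, and IARS1 went from 359.9, 328, 317 and 327 to 822, 772, 767 and 749 CPM (1.22 ± 0.06).

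CHAC1 is shown for the CARE, the composite element TGATGNAA of ATF4 and C/EBP factors, here in capitals as its complement TTGCATCA (RefSeq, GRCh38.p14, chr15:40953221-40953520, plus strand). CHAC1: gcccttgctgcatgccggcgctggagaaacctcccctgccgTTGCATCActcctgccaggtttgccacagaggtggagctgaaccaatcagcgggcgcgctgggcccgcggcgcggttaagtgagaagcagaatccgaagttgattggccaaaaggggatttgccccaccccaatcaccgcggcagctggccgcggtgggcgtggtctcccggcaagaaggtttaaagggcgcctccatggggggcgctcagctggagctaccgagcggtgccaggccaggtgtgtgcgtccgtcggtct

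TGATGNAA was in 6 of 25 promoters of the list (24.0%), in 1.76% of the promoters of genes tested and in 3.67% of all promoters, on either strand. Its share was 5.66% among genes called higher and 3.00% among those called lower.

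Chaperones and other genes of the endoplasmic reticulum rose in 19 of 22 cases and fell in 0, with a median of 0.87, and CANX, PDIA4 and PDIA6 did not pass the test. HSPA5, the chaperone BiP, rose from 379, 323, 331 and 329 to 1668, 1042, 1002 and 973 CPM (1.73 ± 0.15, adjusted p = 4.43e-09), most in the unnumbered library. HERPUD1, of the pathway that degrades misfolded proteins, rose from 115, 120.1, 117 and 115 to 764, 697, 689 and 705 CPM (2.61 ± 0.10, adjusted p = 1.66e-13), by a like factor in all 4. HSP90B1 rose by 0.31 ± 0.09 and SEL1L by 1.06 ± 0.08. Sal alone raised 15 and Das alone 7 of the 22. The heat shock genes of the cytosol moved the other way, with 10 of 13 lower, 0 higher and a median of −0.44. HSPB1 fell from 227, 182, 196 and 202 to 75.1, 32.7, 35.5 and 36.5 CPM (−2.25 ± 0.14), HSP90AA1 by 1.32 ± 0.08 and HSPA1A by 0.38 ± 0.10, though HSPA1A and HSPA1B are near-identical copies.

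HSPA5 is shown for the ERSE, the element of the unfolded protein response that joins a CCAAT box to CCACG over a fixed gap, in capitals (RefSeq, GRCh38.p14, chr9:125241294-125241593, minus strand). HSPA5: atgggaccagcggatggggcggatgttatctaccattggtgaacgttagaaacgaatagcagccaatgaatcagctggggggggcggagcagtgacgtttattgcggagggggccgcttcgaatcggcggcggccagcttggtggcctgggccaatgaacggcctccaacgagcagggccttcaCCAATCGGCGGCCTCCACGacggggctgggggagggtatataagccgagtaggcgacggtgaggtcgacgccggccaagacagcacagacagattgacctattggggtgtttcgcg

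The ERSE was in 6 of 21 promoters of the list (28.6%) and in 0.121% of the promoters of genes tested, and CCAAT, which is a part of it, in 18 of 21 (85.7%). Among genes called higher the ERSE was in 0.314% of promoters, and among those called lower in 0%. In sterol promoters CCAAT was found in 15 of 18 (83.3%), and the sterol element TCACNCCAC in 1 of 18 (5.56%), beside 1.12% of the promoters of genes tested.

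Genes of the aryl hydrocarbon receptor, the sensor of planar aromatic compounds, rose in 6 of 10 cases and fell in 0, with a median of 0.62. CYP1A1, its best-known target, stood at 89.2, 42.3, 41.6 and 40.9 CPM in the control and at 513, 569.9, 579 and 576 CPM in S + D (adjusted p = 4.72e-13). CYP1B1 rose from 775, 875, 795 and 781 to 1296, 2039, 2112 and 2141 CPM (1.21 ± 0.09). Sal alone raised 0 and Das alone 7 of the 10. The element TNGCGTG of the receptor was in 3 of 8 promoters of the list (37.5%) and in 7.18% of the promoters of genes tested. Its share was 3.14% among genes called higher and 5.11% among those called lower.

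Lysosome and autophagy genes rose in 16 of 35 cases and fell in 7, with a median of 0.14. WIPI1, which acts in forming autophagosomes, rose from 33.1, 26.9, 27.6 and 27.7 to 128, 129, 121 and 121 CPM (2.12 ± 0.08, adjusted p = 8.94e-14), with 28.1% of its exon bases inside other genes. The cathepsin genes CTSB (−1.35 ± 0.10) and CTSD (−1.11 ± 0.11, with 48.2% of its exon bases inside other genes) fell, and LAMP1 did not pass the test (0.02 ± 0.07). Of the 12 iron genes 3 rose and 1 fell (TFRC, −0.25 ± 0.07, adjusted p = 0.0104 with the replicate number as a block), and FTL, ferritin light chain, went from 147, 144, 137 and 143 to 585, 377, 387 and 383 CPM (1.55 ± 0.12). NRF2 targets rose in 5 and fell in 5 of 21 cases (median −0.04), with NQO1 at 0.25 ± 0.09 and HMOX1 at 0.02 ± 0.15, neither past the test. Metallothioneins and zinc transporters rose in 4 and fell in 5 of 11 cases (median −0.15), and MT2A fell from 503, 549, 571 and 582 to 163, 119.6, 115 and 127 CPM (−2.07 ± 0.11).

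Of the genes of glycolysis and hypoxia 10 of 30 were higher and 12 lower, with a median of −0.23. Over the numbered libraries alone 9 were higher and 18 lower, with a median of −0.45. Among all 16257 genes tested in that fit, 4658 were higher and 4784 lower. The enzyme genes PKM (−1.30 ± 0.08) and LDHA (−1.18 ± 0.08) fell, and VEGFA rose from 242, 164, 189 and 186 to 668, 429.6, 414 and 437 CPM (1.31 ± 0.08). CA9, a carbonic anhydrase induced in hypoxia, differed between the unnumbered and the numbered libraries. Its level was 208 CPM in the unnumbered control and 221 CPM in the unnumbered S + D library, but 35.6, 54.4 and 53.6 against 8.59, 11.9 and 9.62 CPM in the numbered ones. The groups overlapped, and the change was −1.53 ± 0.29 over all libraries, −2.28 over the numbered libraries and 0.09 between the unnumbered libraries. Oxidative phosphorylation genes of the nucleus fell in 9 of 28 cases and rose in 1 (UQCRC2, 0.35 ± 0.07), with a median of −0.15. Genes of the mitochondrial genome were not analysed here.

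The Wnt pathway fell in 19 of 26 cases and rose in 0, with a median of −0.86. AXIN2, a feedback inhibitor and common readout of the pathway, went from 25.7, 32.5, 34.8 and 33.7 to 8.29, 10.1, 10.1 and 11.5 CPM (−1.66 ± 0.11, with 25.3% of its exon bases inside other genes), and the ligand WNT10A from 44.5, 28.9, 32.6 and 31.7 to 11, 7.51, 8.42 and 9.13 CPM (−1.93 ± 0.11). Sal alone lowered 18 and Das alone 13 of the 26. Notch genes fell in 10 of 17 cases (median −0.68), among them HES1 (−0.71 ± 0.08) and JAG2 (−1.46 ± 0.17), and rose in 1, DLL4 (2.65 ± 0.46), whose level stayed under 1 CPM. Of Hedgehog genes 7 of 14 fell and 3 rose (among them PTCH1, 0.44 ± 0.09, and CDON, 1.51 ± 0.14), with a median of −0.34, and GLI1 was under 1 CPM and did not pass the test.

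Genes of MHC class I presentation fell in 11 of 13 cases and rose in 0, with a median of −0.47, from −0.28 in B2M to −1.0 in HLA-F. Without overlap were 6 of the 13, and the unnumbered S + D library stood above the other 3 in HLA-B (250.2 against 115 to 126 CPM). Interferon-stimulated genes fell in 12 of 27 cases and rose in 3 (STAT2, 1.05 ± 0.11, IFIT2, 0.72 ± 0.10, and IFIH1, 0.46), with a median of −0.18, and OAS3 fell by 1.63 ± 0.10. Chemokines and cytokines fell in 10 of 22 cases and rose in 5, with a median of −0.22. SAA1, serum amyloid A, went from 54.9, 14.7, 13.6 and 14.4 to 8.83, 1.61, 2.40 and 2.05 CPM (−2.77 ± 0.13), lower in S + D within the unnumbered libraries and within the numbered libraries. CXCL8 fell by 1.62 ± 0.28, and by 1.02 over the numbered libraries, with overlapping groups, of 11.3 CPM in the unnumbered control library and 2.30 CPM or less in every other library. TNFAIP3, an inhibitor of NF-κB, rose by 0.85 ± 0.11. STAT3 fell from 330.3, 349, 353 and 362 to 240.3, 212, 211 and 211 CPM (−0.67 ± 0.07), in a list where 5 of 20 rose, 5 fell and the median was −0.07.

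BCL2 family genes fell in 7 and rose in 4 of 16 cases (median −0.22), with the survival gene BCL2L1 at −0.97 ± 0.07 (41.3% of its exon bases inside other genes) and the death gene HRK at 1.29 ± 0.13. Targets of p53, which is mutated in these cells, rose in 10 and fell in 7 of 23 cases (median 0.00), with SESN2 at 1.13 ± 0.09 and PLK2 at −1.12 ± 0.08. FOXO targets rose in 10 and fell in 3 of 20 cases (median 0.15). Steroid hormone receptors rose in 6 and fell in 5 of 14 cases (median 0.06), with NR3C1, the glucocorticoid receptor, at 0.84 ± 0.06 and VDR at −1.15 ± 0.07. Pumps and transporters of sodium and potassium fell in 7 of 16 cases and rose in 1 (SLC6A6, 0.53 ± 0.07), with a median of −0.18. The cotransporter gene SLC12A2 fell by 1.96 ± 0.13, from 396, 357, 343 and 340.4 to 64.1, 99.5, 111 and 109 CPM. MYC network genes rose in 6 and fell in 4 of 13 cases (median 0.36), ribosome biogenesis genes rose in 6 and fell in 12 of 26 (median −0.24) and enzymes of DNA methylation and Polycomb rose in 1, EZH1, and fell in 10 of 15 (median −0.57), with DNMT1 at −0.79 ± 0.05. ABC drug transporters fell in 3 and rose in 1 of 8 cases (median −0.17).

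The single drugs were then compared with S + D directly at 24 h. Against Das, 56 genes were higher (0.342%) and 49 lower (0.300%) in S + D past both cutoffs, and at the adjusted p alone 2080 (12.7%) and 2133 (13.0%). Without the unnumbered Das library the count of higher genes past both cutoffs was 29. Against Sal, 202 were higher (1.23%) and 216 lower (1.32%), and at the adjusted p alone 2492 (15.2%) and 2586 (15.8%). Of the ER chaperones 19 of 22 were higher in S + D than with Das, and HSPA5 by 1.22 ± 0.14. Of the replication genes 27 of 36 were lower than with Das and 33 lower than with Sal, and RRM2, at a mean of 428 CPM with Sal and 218 CPM with Das, was lower in S + D by 1.20 ± 0.08 than with Das and by 2.15 ± 0.08 than with Sal. Mitosis genes were lower than with Das in 2 of 25 cases only, and lower than with Sal in 24. Few sterol genes passed the test against a single drug, with 1 higher and 2 lower than with Das and 1 and 1 against Sal. CYP1A1 stood at a mean of 58.1 CPM with Sal and 602 CPM with Das and did not differ from Das past the test (−0.03 ± 0.14, adjusted p = 0.902). CCND1 took a middle level with each drug alone, of 127 CPM with Sal and 107 CPM with Das, and was lower in S + D than with either, by 1.34 ± 0.09 against Das and by 1.59 ± 0.09 against Sal.

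Whether S + D gave the sum of the single responses was tested by the departure, the log2 change of S + D minus those of Sal and Das, where 0 stands for the sum. Past both cutoffs, 2 genes lay above the sum (0.0122%) and 11 below it (0.0672%), and at the adjusted p alone 38 (0.232%) and 194 (1.19%). The replicate number as a block in place of the batch left 2 above and 6 below past both cutoffs. The count below was 23 without the unnumbered Das library, 17 without Sal library 2, 6 and 7 without Das libraries 2 and 3 and 7 without control library 1, and the count above was 0 without the unnumbered Sal library and 1 without the unnumbered control or Das library. The largest group below the sum was that of the sterol genes, of which 18 of 25 passed the test and 0 lay above, with a median departure of −0.77. MVD stood at 923, 462, 381 and 509.7 CPM with Sal, 834, 654, 629 and 575 CPM with Das and 740.4, 625, 655 and 648 CPM with both, and S + D did not pass the test against either drug (departure −1.30 ± 0.16, adjusted p = 0.000114). Of the ATF4 stress targets 8 of 30 lay below the sum, CHAC1 among them (−1.24), and of the replication genes 6 of 36, among them RRM2 (−0.56 ± 0.11). For a gene that rises with each drug, such as MVD, lying below the sum is a smaller rise than the sum. RRM2 was at −0.63 with Sal, −1.59 with Das and −2.79 with both, so for RRM2 it is a larger fall than the sum. The smallest adjusted p belonged to MAGED1, of the melanoma antigen family, with means of 57.0 CPM in the control, 176 CPM with Sal, 143 CPM with Das and 126 CPM with both (−1.82 ± 0.10, adjusted p = 2.83e-09). Next came COPG1 (−1.01 ± 0.08), KDELR3 (−2.0 ± 0.18) and SEC24D (−1.19 ± 0.12), which act in transport between the endoplasmic reticulum and the Golgi, and MAGEH1 (−1.53 ± 0.16). KDELR3 stood at 198, 86.1, 91.1 and 102 CPM with Sal, 48.6, 37.3, 38.8 and 42.0 CPM with Das and 98.0, 79.2, 74.0 and 76.2 CPM with both.

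Above the sum, the rule named 5 genes. IL1RN, the antagonist of the interleukin 1 receptor, stood at 12.3, 13.8, 12.5 and 14.4 CPM in the control, 10.7, 14.2, 13.7 and 14.2 CPM with Sal, 44.3, 29.4, 30.2 and 36.6 CPM with Das and 95.7, 74.5, 72.0 and 74.8 CPM with both (departure 1.17 ± 0.17, adjusted p = 0.000574). With Sal alone its libraries overlapped those of the control, and S + D was above Das in every library. TNFAIP3 (1.16 ± 0.16), MAFF (0.67 ± 0.09), BIRC3 (1.05 ± 0.14) and the tight junction gene CLDN1 (0.89 ± 0.13) were the others. The 2 genes above the sum past both cutoffs were LRRC55 (1.72 ± 0.29) and an unannotated gene (1.62), named after their values were seen.

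**Figure D4:**
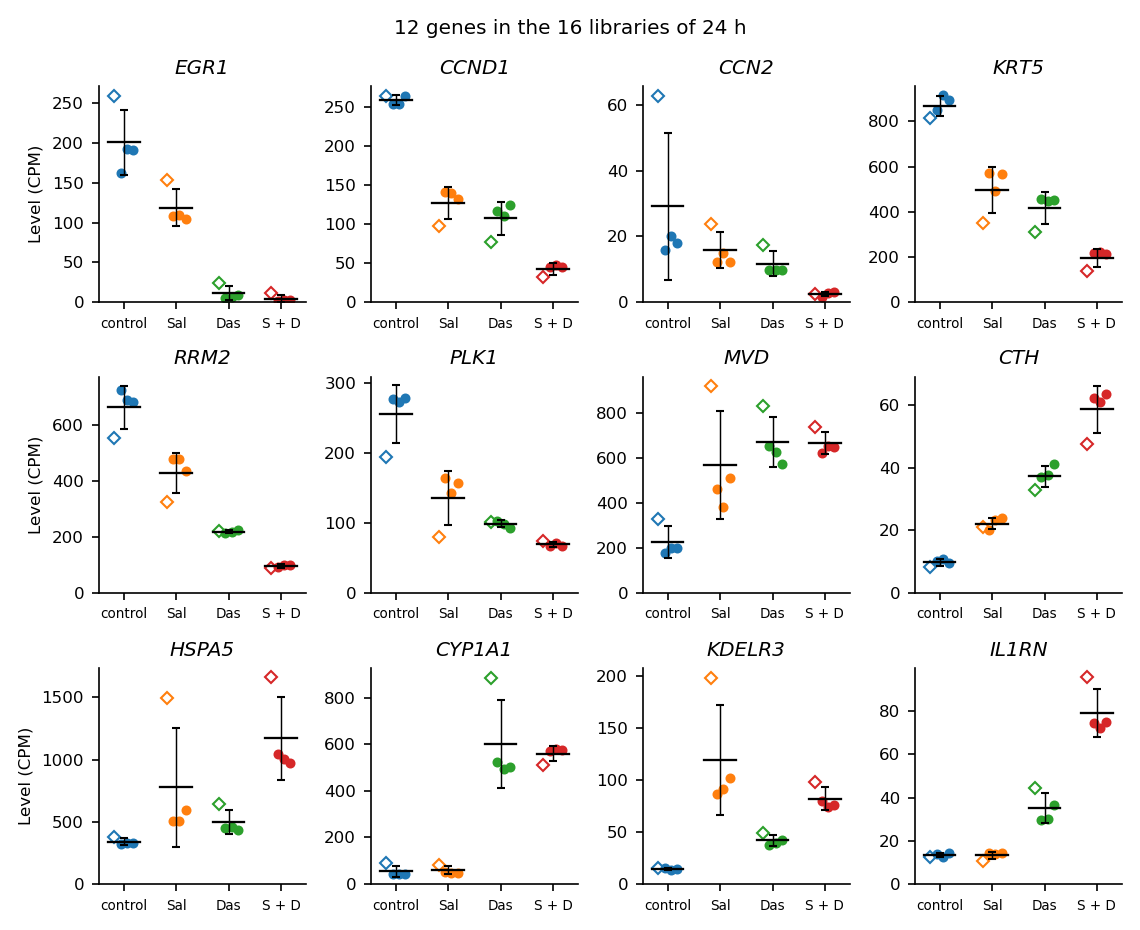
Levels (CPM) of 12 genes in the 16 libraries of 24 h, with the mean and SD of each group of 4 and the unnumbered libraries as open diamonds. EGR1, CCND1, CCN2, KRT5, RRM2 and PLK1 step down from control to S + D, CTH steps up, HSPA5 is highest with S + D, CYP1A1 is high with Das and with S + D, MVD is about as high with each drug as with both, KDELR3 is highest with Sal and IL1RN is highest with S + D.

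The same treatment at 72 h, in 4 S + D and 4 control libraries of its own, gave 1651 genes higher (9.90%) and 1779 lower (10.7%) past both cutoffs of 16682 tested. Of the 551 genes higher at 24 h, 533 were tested at 72 h, and 428 of these (80.3%) were higher there past both cutoffs, beside 8.10% of the 16052 genes tested at both times. Of the 508 lower at 24 h, 482 were tested and 423 (87.8%) were lower at 72 h, beside 10.8%. The median change of the higher genes went from 2.04 at 24 h to 2.38 at 72 h and that of the lower genes from −2.04 to −3.15. EGR1 was at −9.75, RRM2 at −5.49, CCND1 at −3.99 and HSPA5 at 3.36 at 72 h, each farther from 0 than at 24 h. MAPK4 (1.11), SMOC1 (3.74) and IVL (−1.03) were nearer to 0. At the adjusted p alone, the sterol list had 8 genes higher and 6 lower at 72 h, with a median of 0.07. The shares of all genes tested at 72 h by the same measure were 31.6% higher and 32.2% lower. In the opposite direction past both cutoffs were 4 of the genes lower at 24 h, ANKRD1, CTNNAL1, GRIN2A and MYL9, and 1 of those higher, LINC02732. MYL9, a myosin light chain of contractile cells, had means of 1.56 CPM in the control and 0.375 CPM in S + D at 24 h (−2.05 ± 0.24) and of 0.945 and 8.10 CPM at 72 h (3.03 ± 0.42), and ANKRD1, a YAP target, went from −1.94 ± 0.24 to 1.70 ± 0.29. These 5 were named after their values were seen, and whether the changes at the 2 times differ was not tested here.

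**Figure D5:**
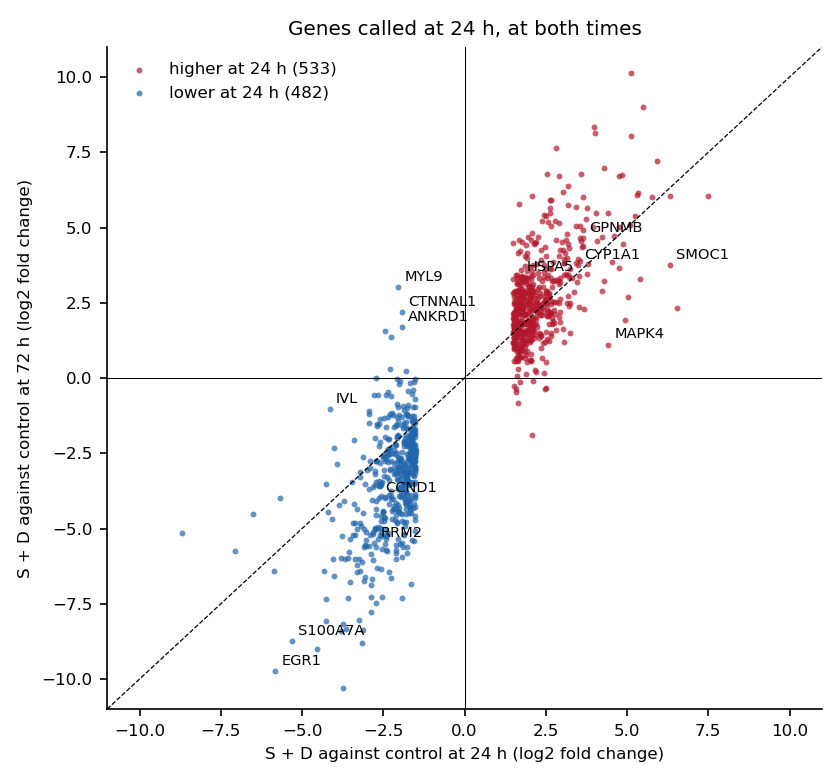
Change of the genes called at 24 h in S + D against control at 24 h (horizontal axis) and at 72 h (vertical axis), both as log2 fold change, for 533 genes higher and 482 lower at 24 h that were tested at both times. Most points lie in the quadrant of their own direction, those lower at 24 h mostly below the dashed line of equal change, and MYL9, CTNNAL1 and ANKRD1 lie above 0 at 72 h.

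Some genes were close to silent in one of the groups, and for these the fold is a bound against 3 counts per library. Such genes passed the filter on low counts only through the group where they are high, so their direction was fixed by it. CGA, the shared subunit of the glycoprotein hormones, had 0 to 3 counts in the control and 61 to 85 in S + D, at least 25.6-fold higher. FGF21, a hormone of the ATF4 response, had 0 to 3 counts and 25 to 81, at least 15.8-fold higher. EGR3, a relative of EGR1, had 32 to 70 counts in the control and 0 to 2 in S + D, at least 16.9-fold lower, and IL7R 36 to 161 and 0 to 2, at least 19.6-fold lower. These 4 were named after their values were seen.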

How the data were processed

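Total RNA of MDA-MB-468 cells was sequenced in 32 libraries. The authors deposited raw counts per gene; the submitters' processing notes name bcl2fastq 2.19, STAR 2.5.2, Cufflinks 2.1.1 and DESeq2. The counting program, its annotation and its use of strand are not given in the sources used here, so overlapping genes are named as such where over 10% of exon bases are shared. Of 48804 genes listed, 46537 matched GENCODE symbols and GRCh37 positions.

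The 16 libraries of 24 h (25692561 to 42769687 counts) were fitted with edgeR 4.0.16 (R 4.3.3, limma 3.58.1), with TMM scaling, filterByExpr (minimum count 10), the quasi-likelihood test and a term for numbered against unnumbered libraries. All 4 treatments thus share 1 estimate of the spread. The 72 h libraries were fitted separately. The p-values were adjusted by Benjamini-Hochberg over all genes tested, and an adjusted p in the text is from this test. The SE was derived from the same test, as the absolute log2 fold change over the square root of its F statistic. The study's methods call the libraries biological replicates, and the labels do not say how the cultures were separated, so the p-values measure the spread between these libraries. The fit was also run on simulated counts whose batch shift was the same in all treatments. That run cannot show how the fit handles a batch shift that differs between treatments. DESeq2 1.42.0 was an alternative, beside other scalings, filters, thresholds, library sets and designs.

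Deviations of control and S + D libraries with the same number correlated at 0.61, 0.31, 0.21 and 0.19, all above the 0.1 taken here as pairing, but at 0.03, 0.01 and −0.01 when the unnumbered libraries were left out. The block on the number was fitted as an alternative.

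The comparison, the 46 gene lists and the rules were chosen with earlier results of these data known. The genes named are the 12 largest rises and falls among protein-coding genes of 5 CPM or more in a group, without overlap and past both cutoffs, the first 2 members and the 2 smallest adjusted p in each direction of each list, and the 5 smallest adjusted p in each direction of the departure. Other members are named in ranges or where a count was small, and other genes were chosen after their values were seen. A few genes that the rule names are not reported here.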

Additional observations from a re-analysis of the deposited data

Results flagged for a closer look

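For 96 genes whose values are given above, each group of 4 libraries was searched for 1 library whose gap to its nearest neighbour exceeded Dixon's critical share of the whole range. Chance passes about 1 in 20 groups, and 59 of 192 passed, 56 of them by the unnumbered library. The unnumbered control library was highest for ASNS (0.936), BIRC3 (0.894), CA9 (0.891), CCN1 (0.895), CCN2 (0.914), CHAC1 (0.839), CXCL8 (0.933), CYP1A1 (0.97), ETV4 (0.858), HMGCS1 (0.938), HSPA5 (0.871), KLHDC7B (0.868), LDHA (0.863), LRRC55 (0.888), MAFF (0.872), MVD (0.844), SAA1 (0.973), SLC7A5 (0.907) and WIPI1 (0.873), with the gap as a share of the range in brackets. The unnumbered control library was lowest for MAGEH1 (0.845) and PLK1 (0.924). The unnumbered S + D library was highest for ASNS (0.831), ATF3 (0.966), BAIAP3 (0.933), CA9 (0.985), CCNB1 (0.875), CHAC1 (0.902), DDIT3 (0.92), EGR1 (0.896), FTL (0.952), HLA-B (0.916), HSPA5 (0.902), HSPB1 (0.912), IL1RN (0.882), KLHDC7B (0.856), LDHA (0.958), MAFF (0.898), S100A7 (0.938), SAA1 (0.891), SEC24D (0.857), STAT3 (0.964), TNFAIP3 (0.835), VEGFA (0.908) and VIM (0.883). The unnumbered S + D library was lowest for CTH (0.837), CYP1A1 (0.868), CYP1B1 (0.88), GPNMB (0.833), HMGCS1 (0.908), KRT5 (0.887), KRT81 (0.873), LPIN1 (0.94), MAPK4 (0.885), MYC (0.831), SCD (0.911) and SMOC1 (0.883). The gap was in a numbered library for KRT86 (control library 3, lowest, 0.962), MAGED1 (S + D library 1, lowest, 0.844) and MCM2 (S + D library 2, highest, 0.876).

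The response to both drugs departed from the sum of the single responses at an adjusted p under 0.01 for 27 of these genes. Below the sum, on the log2 scale, were NR4A3 (−2.76), KDELR3 (−2.0), MAGED1 (−1.82), MAGEH1 (−1.53), MVD (−1.30), CHAC1 (−1.24), SEC24D (−1.19), HMGCS1 (−1.11), WIPI1 (−1.05), COPG1 (−1.01), KRT81 (−0.94), FASN (−0.84), HERPUD1 (−0.79), ASNS (−0.65), SCD (−0.63), VIM (−0.62), MCM5 (−0.61), CCNE1 (−0.57), RRM2 (−0.56), CTH (−0.53) and MCM2 (−0.49). Above it were LRRC55 (1.72), IL1RN (1.17), TNFAIP3 (1.16), BIRC3 (1.05), CLDN1 (0.89) and MAFF (0.67). A departure below the sum is a smaller rise than the sum for genes that rose with each drug. For CCNE1, MCM2, MCM5 and RRM2, which fell with each drug, it is a larger fall than the sum. Neither reading covers KRT81, which was not higher past the test with Sal alone, or FASN, which did not pass the test in S + D against control.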

How the results depend on the processing

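For S + D against control at 24 h, each alternative design or scaling gave between 468 and 671 genes higher and 479 and 674 lower past both cutoffs, and leaving out 1 library of either group gave 544 to 581 and 514 to 572. The no-filter setting tested 30783 genes and gave 671 and 674. The split of calls was 551 and 508 with TMM, 520 and 533 with the size factors of DESeq2, and 523 and 542 with DESeq2 itself. Thresholds moved every count. At an adjusted p under 0.01 alone the higher and lower counts were 4414 and 4195 against control, 2080 and 2133 against Das, 2492 and 2586 against Sal, 38 and 194 for the departure, and 3117 and 3264 for genes called at both 24 and 72 h. At an adjusted p under 0.05 with an absolute log2 fold change above 1 they were 1381 and 1256, 208 and 251, 541 and 570.0, 24 and 80, and 1040 and 1045. Without the batch term S + D against Das gave 22 higher and 30 lower, and the departure 0 above and 2 below the sum. The departure gave 9 above and 32 below with no filter, 18 below over the numbered libraries and 5 below in the fit of all 32 libraries.

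With the replicate number as a block, the paired fit gave 553 higher and 509 lower against control, 56 and 47 against Das, 202 and 207 against Sal, and 428 and 424 at both times, while the departure had 2 above and 6 below the sum. Leaving out 1 library at a time gave 29 to 69 higher and 45 to 60 lower against Das, 186 to 225 and 206 to 288 against Sal, 0 to 3 above and 6 to 23 below the sum, and 393 to 433 and 413 to 460 at both times.

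Of the 231 genes named by the rule and tested against control, calls were lost by 33 without the batch term, 10 in the fit of all 32 libraries, 4 to 8 with 1 library left out, 3 with the replicate block (PALB2, TFRC and TFAP2A), 3 over the numbered libraries (PALB2, CXCL1 and CEBPD) and 0 to 2 under the other designs and scalings. Those described above that lost their call without the batch term were CDKN1A, BRCA2, PALB2, ATF5, CEBPB, VARS1, HSP90B1, HSPA1A, CA9, HLA-B, CXCL8, ITGA2, LAMB2, TFRC, SLC6A6, PTCH1, ESR1, CEBPD, TFAP2A and CD44. Among the 231 genes, 3 changed sign under an alternative, and none of these passed the test. HMOX1 (0.02) went to −0.01 with the size factors of DESeq2, −0.00 with no filter, −0.17 over the numbered libraries, −0.01 with DESeq2, −0.02 with all 32 libraries and between −0.11 and 0.09 with a library left out (−0.11, −0.10 and −0.01 where the sign changed). LAMP1 (0.02) went to −0.00 with the size factors and with DESeq2, −0.05 over the numbered libraries, −0.01 with all 32 and between −0.07, without the unnumbered control library, and 0.03 with a library left out. EGFR (−0.11) ran from −0.19 to 0.04, the latter without that library. The cause was not tested for any of these. Counts limit genes with few reads in a group, for which a fold is only a bound.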
